A study of Homo sapiens with 4 samples.

Results

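The 9 genes described here encode acetyltransferases, an acetyl-lysine reader, a demethylase and its scaffold, deacetylases, a Mediator subunit and a remodeller that work with the EWS-FLI1 fusion protein: EP300, CREBBP, BRD2, KDM1A, RCOR1, HDAC1, HDAC2, MED1 and CHD4. They were chosen by name, as known partners of the fusion, out of 20090 protein-coding genes, and all 9 were found in the hg19 annotation. The cells were SK-N-MC, an established Ewing sarcoma line, untreated as far as the labels say, grown in minimum essential medium with serum. The 3 immunoprecipitations (FLI1; SSRP1, a subunit of the histone chaperone FACT; and acetylated lysine 27 of histone H3, H3K27ac) had 1 library each, and 1 input library was the control for peak calling. The antibody is named as one against FLI1, and the labels do not say whether it separates the fusion from FLI1 itself. On chromosomes 1 to 22 and X, 36305 peaks of FLI1, 19855 of SSRP1 and 37195 of H3K27ac were used. The lists give where a peak lies and no measure of its strength, and read depth was not analysed here.

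EWS-FLI1 joins the activation domain of EWSR1 to the DNA-binding domain of FLI1 and binds both single ETS sites and GGAA repeats. At activated enhancers it is known to work with EP300 and CREBBP, the related acetyltransferases that write H3K27ac, with BET proteins such as BRD2 that read acetylated histones, and with Mediator, which links enhancers to RNA polymerase II. At repressed genes it is known to work with KDM1A (LSD1), which removes methyl groups from histone H3, and with NuRD, whose remodeller is CHD4 and whose deacetylases are HDAC1 and HDAC2. RCOR1 (CoREST) is the scaffold that joins KDM1A to these deacetylases. The peaks below lie at the genes of these proteins; they say nothing of where the proteins themselves bind.

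H3K27ac lay within 2.5 kb of a transcription start site (TSS) at 9 of the 9 genes, SSRP1 at 7 and FLI1 at 5. EP300, BRD2, RCOR1 and HDAC1 carried all 3. KDM1A, HDAC2 and CHD4 carried SSRP1 and H3K27ac without FLI1. CREBBP carried FLI1 and H3K27ac without SSRP1, and MED1 carried H3K27ac alone.

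Over all protein-coding genes, an H3K27ac peak lay at a TSS in 57.9%, SSRP1 in 35.8%, FLI1 in 29.0% and all 3 in 17.3%. Among the 11624 genes with H3K27ac at a TSS, the shares were 54.7% for SSRP1, 42.1% for FLI1 and 30.0% for all 3. The 9 genes are a fixed list and not replicates, so no interval measures an uncertainty of these counts. For 9 independent draws, the 95% exact binomial (Clopper-Pearson) interval, which covers counting error only, would run from 21.2 to 86.3% for FLI1. It would run from 39.99 to 97.2% for SSRP1, from 66.4 to 100% for H3K27ac and from 13.7 to 78.8% for all 3. The genes were not such draws, and they were chosen with earlier results of these data known. The intervals therefore cannot decide whether a share differs from that of all genes or of acetylated genes. The 9 genes were chosen by name, and nothing particular to them is read from these counts. Replicates were not available for any target, so no difference could be set against the spread between libraries, and no test was made.

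**Figure D1:**
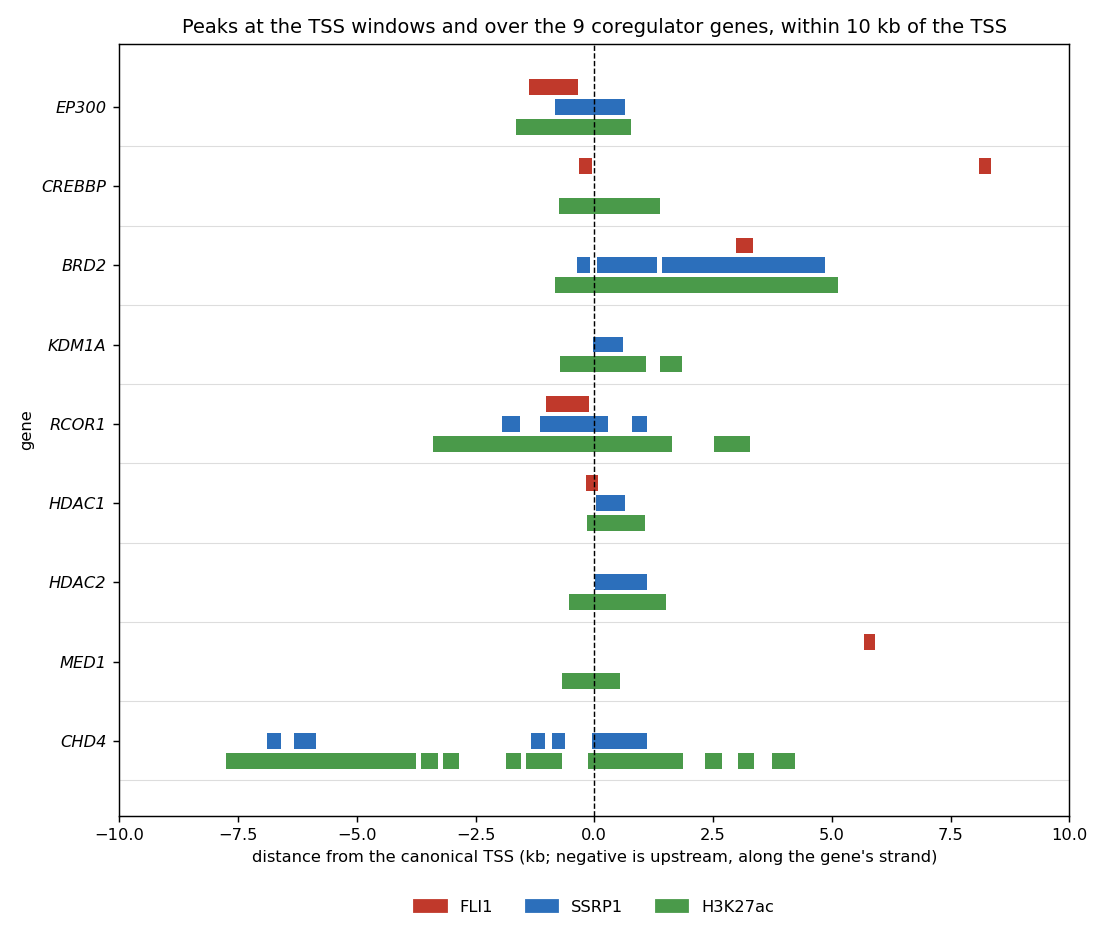
Peaks of FLI1, SSRP1 and H3K27ac at the TSS windows and over the 9 genes, drawn to scale within 10 kb of the canonical TSS (dashed line), with each gene's transcription running to the right. Peaks that meet neither a TSS window nor the gene are not drawn, such as the FLI1 peak 5.94 kb upstream of KDM1A. At EP300 and RCOR1 the FLI1 peak ends upstream of the TSS inside the H3K27ac peak, while CREBBP and MED1 have no SSRP1 bar.

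The sequences shown first lie under FLI1 peaks at 4 of the TSSs, some with and some without the FLI1 motif searched here. The motif searched, called the ETS core here, was CCGGAAG or CCGGAAA, looked for on both strands. It was found in the FLI1 peaks of EP300 and RCOR1 and not in those of CREBBP, HDAC1 and BRD2. The peaks that held it were also the widest, at 1045 and 908 bp, against 276, 243 and 356 bp. A wider peak has more room for a motif, and peak width was not matched. Sequences are from the GRCh37 reference, 5′ to 3′ on the strand of the gene, so they do not show any variant of these cells. Capitals mark the core at EP300 (chr22:41487663-41487782) and RCOR1 (chr14:103057938-103058057, which begins before the peak does), and each GGAA or TTCC at CREBBP (chr16:3930762-3931037, the whole peak) and HDAC1 (chr1:32757518-32757683, the part of the peak upstream of the TSS).
EP300: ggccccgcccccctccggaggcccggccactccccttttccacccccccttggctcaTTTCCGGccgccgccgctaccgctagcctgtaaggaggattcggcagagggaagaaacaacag
RCOR1: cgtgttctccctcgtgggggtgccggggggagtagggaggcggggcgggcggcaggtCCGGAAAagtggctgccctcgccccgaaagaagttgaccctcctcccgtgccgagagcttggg
CREBBP: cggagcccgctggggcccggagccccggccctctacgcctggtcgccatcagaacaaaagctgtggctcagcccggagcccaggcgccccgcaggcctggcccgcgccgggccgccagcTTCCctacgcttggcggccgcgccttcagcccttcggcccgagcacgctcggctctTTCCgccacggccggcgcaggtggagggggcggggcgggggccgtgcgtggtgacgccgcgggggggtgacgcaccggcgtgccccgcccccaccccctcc
HDAC1: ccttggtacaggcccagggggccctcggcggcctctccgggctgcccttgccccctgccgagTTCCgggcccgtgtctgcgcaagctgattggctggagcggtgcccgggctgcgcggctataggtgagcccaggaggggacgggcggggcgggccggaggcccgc

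The stretches at CREBBP and HDAC1 were rich in G and C, at 79.0 and 76.5%, respectively. Over the whole peaks, GGAA on either strand occurred 0.725 times per 100 bp at CREBBP (2 in all) and 0.412 times at HDAC1 (1 in all). It occurred 1.34 times per 100 bp at EP300 (14 in all), 1.10 times at RCOR1 (10 in all) and 2.25 times at BRD2 (8 in all), which had the highest density and no core. An ETS core occurred in 24.8% of the 6616 FLI1 peaks that met a TSS window of any gene, and in 2 of the 5 at these genes. That share was not matched for peak width. The core of EP300 lay 16 bp from the midpoint of its peak and that of RCOR1 426 bp from it, near the upstream edge. With any base after CCGGAA, a looser motif that 29.9% of FLI1 peaks at TSSs held, HDAC1 was added. In the RefSeq promoters of the 9 genes (GRCh38, from 250 bases before to 50 after the start), 1 held the core: that of CHD4, at position -164, where no FLI1 peak was found. The share over 21537 promoters was 16.8%.

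The acetyltransferase genes EP300 and CREBBP, close relatives, differed in SSRP1. EP300 lies on chromosome 22 (41488596 to 41576081) with its TSS at 41488596. Its FLI1 peak (41487217 to 41488261) was 1045 bp wide, wider than 99.1% of the FLI1 list, and ended 335 bp upstream of the TSS. FLI1 cover of its TSS windows exceeded that of 93.6% of genes with FLI1 there. An SSRP1 peak, 1473 bp wide, reached from -827 to 645 bp relative to the TSS. The peaks shared 493 bp, or 47.2% of the FLI1 peak, and both lay in an H3K27ac peak of 2431 bp. The FLI1 peak was thus placed on the upstream flank of the SSRP1 peak.

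CREBBP lies on the minus strand of chromosome 16 (3775055 to 3930714), with its canonical TSS at 3930714. Its FLI1 peak was 276 bp wide and lay at -323 to -48 bp from that TSS, inside an H3K27ac peak of 2132 bp. No SSRP1 peak lay over the gene, and the nearest (3989190 to 3989523, 334 bp wide) was 58.5 kb from the TSS. Among acetylated genes without SSRP1 at a TSS the median distance to the nearest SSRP1 peak was 51.2 kb. Within 5 Mb of CREBBP, SSRP1 peaks numbered 32.8 per Mb, the highest value of the 9 genes, against 6.54 per Mb over the genome. The other lists were dense there too, with 23.2 FLI1 and 31.4 H3K27ac peaks per Mb, against 12.0 and 12.3. In genes with FLI1 and H3K27ac at a TSS, the class that EP300 and CREBBP share, 71.1% of 4898 carried SSRP1.

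BRD2, a BET protein with paired bromodomains, had the most bases of SSRP1 and H3K27ac in its TSS windows among the 9, in windows that are also the longest. Over the whole gene, H3K27ac covered more bases at RCOR1 (10522) and CHD4 (8351) than at BRD2 (5130). The gene is short, at 12.9 kb, and lies on chromosome 6 (32936371 to 32949282) with 6 annotated TSS positions spread from 32936371 to 32940507. A single H3K27ac peak of 5950 bp (32935551 to 32941500) covered all of them and was wider than 99.1% of the list. Inside it lay SSRP1 peaks of 290, 1253 and 3445 bp, the last with 5 summits. Together these covered 4988 bp of the TSS windows, more than in 99.9% of genes with any SSRP1 there. Over the gene, SSRP1 covered 38.7% of the length and H3K27ac 39.7%, while the median over 6128 genes of 0.5 to 2 times this length was 0 for SSRP1 and 3.53% for H3K27ac. The FLI1 peak of BRD2 was 356 bp wide, near the median of 330 bp for FLI1 peaks at TSSs (32939355 to 32939710). It lay in exon 2, 690 bp from the nearest TSS but 2984 bp downstream of the canonical one, wholly inside the widest SSRP1 peak. With the canonical TSS alone, BRD2 did not count as carrying FLI1. The windows of BRD2 joined to 9137 bp, against 5001 bp for a gene with 1 TSS, which gives peaks more room.

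**Figure D2:**
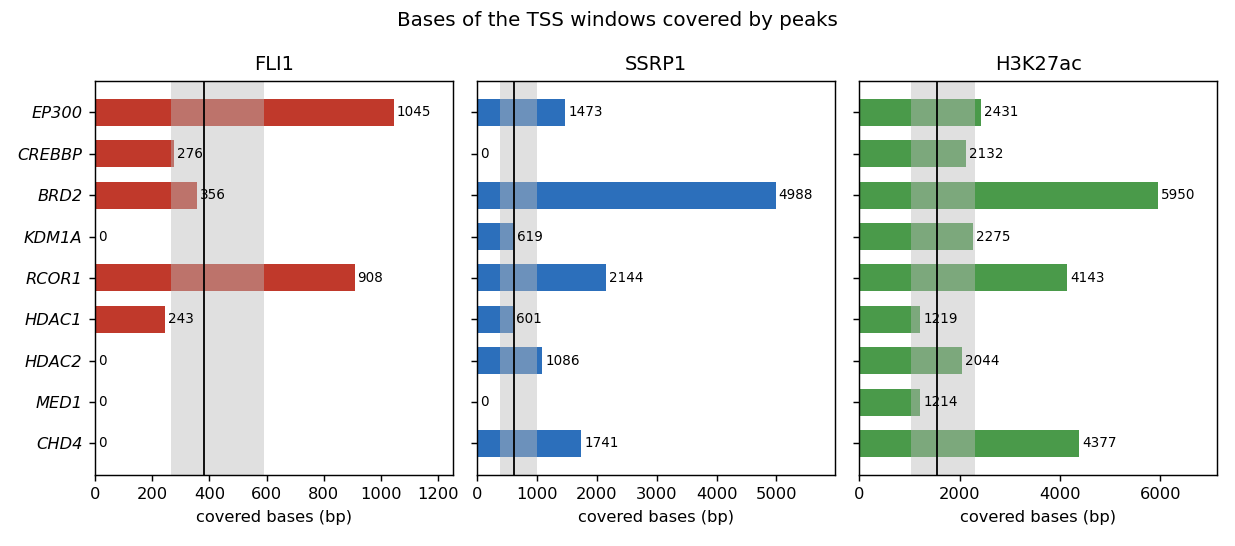
Bases of the TSS windows (2.5 kb on each side of every TSS) covered by peaks of each target at the 9 genes, in bp; the black line is the median and the grey band the middle 50% of all genes that carry that mark. EP300 and RCOR1 exceed the band for FLI1, and BRD2 has the highest bars for SSRP1 (4988 bp) and H3K27ac (5950 bp).

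KDM1A and RCOR1, enzyme and scaffold of one complex, differed in FLI1. KDM1A lies on chromosome 1 (23345936 to 23410182). Its SSRP1 peak of 619 bp reached from -20 to 598 bp relative to the canonical TSS, over exon 1. H3K27ac peaks of 1810 and 465 bp lay over and behind it. A TSS of TEX46, a neighbouring gene on the other strand, lies 343 bp from one of KDM1A, so these peaks cannot be assigned to KDM1A alone. The FLI1 peak nearest to a TSS of KDM1A (23339673 to 23339995, 323 bp wide) was 5.94 kb upstream. It lay 592 bp from the nearest TSS of TEX46. Of acetylated genes without FLI1 at a TSS, 11.4% had a FLI1 peak nearer than that.

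RCOR1 lies on chromosome 14 (103058986 to 103196898) with 1 TSS. Its FLI1 peak (103057971 to 103058878) was 908 bp wide, wider than 98.4% of the list, and ended 108 bp upstream of the TSS. It lay wholly within an SSRP1 peak of 1451 bp that covered the TSS, and smaller SSRP1 peaks of 375 and 318 bp lay 1570 bp upstream and 799 bp downstream. All of these lay in an H3K27ac peak of 5047 bp with 8 summits. FLI1 covered 908 bp of the TSS window, more than in 90.7% of genes with FLI1 there. SSRP1 covered 2144 bp of it and H3K27ac 4143 bp, more than in 95.7 and 94.4% of genes that carry each mark.

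The deacetylase genes HDAC1 and HDAC2, paralogs whose products share complexes, also differed in FLI1. At HDAC1 on chromosome 1 (32757684 to 32799236), a FLI1 peak of 243 bp covered the TSS, from -166 to 76 bp, and an SSRP1 peak of 601 bp began 46 bp downstream of it. The peaks shared only 31 bp, or 12.8% of the FLI1 peak, which is under the 20% minimum for shared peaks, so they lay side by side. The H3K27ac peak was 1219 bp wide. The FLI1 cover was narrow, below the lower quartile of 267 bp and more than in 16.5% of genes with FLI1. SSRP1 covered more than in 48.7% of the genes that carry it and H3K27ac more than in 34.7%.

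At HDAC2 on the minus strand of chromosome 6, an SSRP1 peak of 1086 bp began 23 bp downstream of the canonical TSS (114292312) and covered another TSS of the gene. It lay in an H3K27ac peak of 2044 bp. No FLI1 peak lay over the gene, and the nearest (114341511 to 114341737, 227 bp wide) was 49.2 kb from a TSS. Within 5 Mb there were 10.7 FLI1, 4.0 SSRP1 and 8.8 H3K27ac peaks per Mb, against 12.0, 6.54 and 12.3 over the genome. FLI1 was thus near its genome density and the others below theirs. These were the lowest values of the 9 genes for each list, where the other 8 genes had from 20.2 to 34.9, from 12.0 to 32.8 and from 20.4 to 46.8. The part of this density in the absence of FLI1 at HDAC2 was not tested. Whether local density had a part in the presence of SSRP1 at HDAC2 or its absence at CREBBP was not tested either.

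MED1, a Mediator subunit, was the gene with H3K27ac alone. On the minus strand of chromosome 17 (37560538 to 37607525), an H3K27ac peak of 1214 bp covered its TSSs. A FLI1 peak of 229 bp (37601612 to 37601840) lay in intron 2, 5.68 kb from a TSS, and the nearest SSRP1 peak lay 129 kb away, farther than in 73.1% of acetylated genes without SSRP1 at a TSS. Within 5 Mb of MED1 there were 34.9 FLI1, 22.7 SSRP1 and 40.5 H3K27ac peaks per Mb, against 12.0, 6.54 and 12.3 over the genome.

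CHD4, the ATP-dependent remodeller of NuRD, had SSRP1 and H3K27ac over many bases of its TSS windows and no FLI1. It lies on the minus strand of chromosome 12 (6679248 to 6723690), with 10 TSS positions from 6715539 to 6717596. An SSRP1 peak of 1152 bp covered the canonical TSS (6716545), and peaks of 293 and 296 bp lay upstream. H3K27ac was broken into 7 peaks in the windows, from 312 to 2006 bp wide, that covered 4377 bp of them, more than in 95.4% of genes with H3K27ac. The windows of CHD4 joined to 7058 bp, against 5001 bp for a gene with 1 TSS, which gives peaks more room. A further H3K27ac peak of 4019 bp (6720291 to 6724309), with SSRP1 peaks of 472 and 303 bp, lay near the upstream end of the gene model, 2695 bp from the nearest annotated basic TSS. The nearest FLI1 peak was 41.1 kb from a TSS. Another annotated protein-coding gene without a symbol has a TSS 1 bp from one of CHD4, so these peaks cannot be assigned to CHD4 alone.

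Genes with more H3K27ac cover in their TSS windows carried FLI1 and SSRP1 there more often. Each gene was therefore also set beside the genes whose TSS windows had 0.8 to 1.25 times its H3K27ac cover. That cover is summed over the windows of all TSSs of a gene, and the length of the windows was not matched. SSRP1 lay at 93.1% of the 320 genes like BRD2, 89.5% of the 868 like CHD4 and 87.3% of the 994 like RCOR1, and thus at most genes acetylated to that extent. It lay at 68.1% of the genes like EP300, 65.2% of those like KDM1A, 61.5% of those like HDAC2 and 45.7% of those like HDAC1. CREBBP and MED1, which lacked it, were like genes of which 61.9 and 45.6% had it. For FLI1, 69.9% of the genes like CHD4 carried it, while CHD4 did not, and 36.8% of those like HDAC1, while HDAC1 did. The other shares for FLI1 lay between 36.7% for MED1 and 78.4% for BRD2. The presence of FLI1 at the 9 genes thus did not follow the order of these shares. SSRP1 was present at the 5 genes with the highest shares, and the genes without it, CREBBP and MED1, had shares close to those of HDAC2 and HDAC1, which had it.

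**Figure D3:**
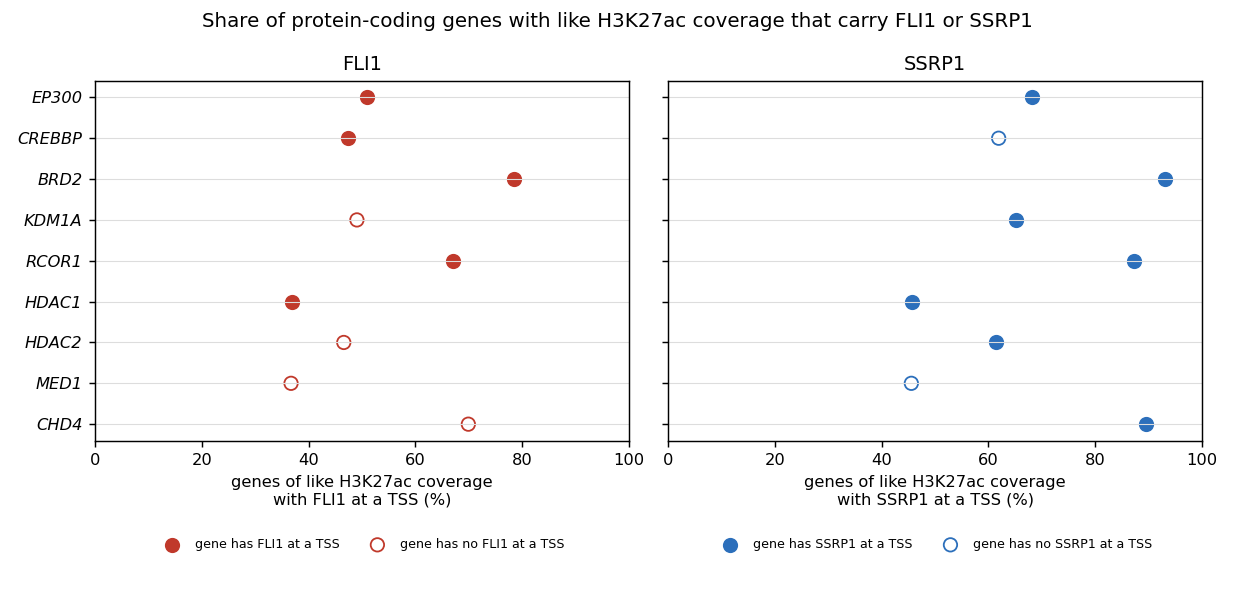
Share of protein-coding genes with 0.8 to 1.25 times the H3K27ac cover of each gene's TSS windows that carry FLI1 (left) or SSRP1 (right) at a TSS, in percent; filled points are genes that carry the peak themselves and open points those that do not. CHD4 is an open point at 69.9% for FLI1, and CREBBP an open point at 61.9% for SSRP1.

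FLI1 and SSRP1 met at the TSS in different ways. Peaks were called shared when their overlap made up 20% or more of one or the other. By this rule 3 of the 5 FLI1 peaks were shared with SSRP1 and 5 with H3K27ac, against 44.7 and 70.6% of the 6616 FLI1 peaks at the TSSs of all genes. With 20% of both peaks required, 1 of the 5 was shared with H3K27ac, against 37.4% of all. Of the 13 SSRP1 peaks, 3 were shared with FLI1 and 13 with H3K27ac, against 31.8 and 81.4% of 9125. Counting the widest peak of each gene in the window of its canonical TSS, the midpoint of FLI1 lay upstream of that of SSRP1 at EP300 (by 766 bp), HDAC1 (by 391 bp) and RCOR1 (by 135 bp). BRD2 has no FLI1 peak in that window, and its FLI1 midpoint lay at 3161 bp from the canonical TSS, next to that of the SSRP1 peak around it at 3143 bp. Over the 3393 genes with both, SSRP1 lay a median of 65 bp downstream of FLI1, with quartiles of -213 and 439 bp.

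Beyond the TSS windows, FLI1 peaks lay over 6 of the genes, SSRP1 over 5 and H3K27ac over 3 (CREBBP, RCOR1 and CHD4). The shares of all genes with such peaks were 30.5, 15.7 and 17.0%. With the peaks in TSS windows counted too, a FLI1 peak lay anywhere over the gene at 7 of 9 (44.4% of all genes), SSRP1 at 7 (40.4%) and H3K27ac at 9 (61.4%). These are long genes apart from BRD2, and among genes of 0.5 to 2 times their length the share with FLI1 was 69.7% for CREBBP, 68.5% for RCOR1, 61.3% for EP300, 57.1% for KDM1A, 52.4% for MED1, 50.4% for HDAC1 and 34.3% for BRD2. It was 59.7% for HDAC2 and 51.5% for CHD4, which had none. For SSRP1 such shares ran from 36.8% (BRD2) to 53.7% (CREBBP), and for H3K27ac from 59.3% (BRD2) to 74.0% (RCOR1). All these shares count peaks in TSS windows too, so the counts outside the windows have no share matched for length. Outside the windows there were 14 FLI1 peaks: 4 in EP300 (introns 2, 4, 7 and 8), 4 in RCOR1, 3 in CREBBP (in introns 1, 5 and 19, the last meeting exon 20) and 1 each in KDM1A, HDAC1 and MED1. They were from 227 to 394 bp wide. H3K27ac was shared by 1 of the 14 and SSRP1 by 1, against 17.8 and 10.5% of the 14339 such FLI1 peaks of all genes. GGAA or TTCC occurred in 9 of them, against 79.6% of such peaks, and 0 held the ETS core, against 4.39%.

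**Figure D4:**
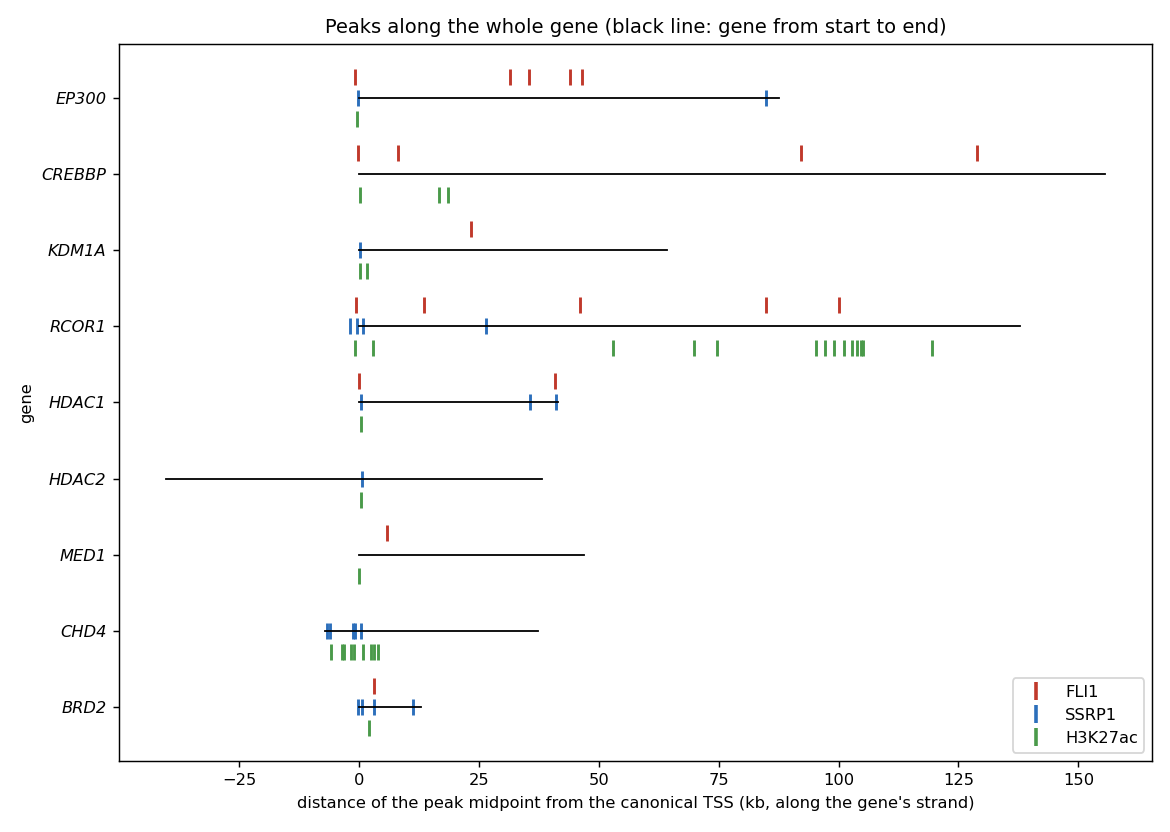
Midpoints of all FLI1, SSRP1 and H3K27ac peaks at the TSS windows and over each gene, by distance from the canonical TSS in kb, with the gene drawn as a black line. RCOR1 has a group of H3K27ac peaks about its FLI1 peak 100 kb downstream of the TSS, while the FLI1 peaks within EP300 have no H3K27ac beside them.

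The acetylated intragenic FLI1 peak lay in intron 3 of RCOR1 (103158979 to 103159368) and held the only GGAA run found in the 19 FLI1 peaks at or over the 9 genes. The run is 10 consecutive GGAA on the minus strand, read as TTCC on the strand of the gene, at 103159051 to 103159090. It is shown here with 40 bases on each side (chr14:103159011-103159130), since such runs are the other kind of site that EWS-FLI1 binds. Capitals mark the run.
RCOR1 intron: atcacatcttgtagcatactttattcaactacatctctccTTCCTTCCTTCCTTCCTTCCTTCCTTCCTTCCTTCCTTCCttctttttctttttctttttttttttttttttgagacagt

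At least 4 consecutive GGAA occurred in 2.69% of all FLI1 peaks and in 2.32% of those over genes outside TSS windows. Around the run, 8 H3K27ac peaks of 302 to 1997 bp covered 6545 bp of a 10131 bp stretch from 95.2 to 105 kb downstream of the TSS. The run itself lay between them, in a gap of 376 bp, with 315 bp to the H3K27ac peak before it (1466 bp wide) and 21 bp to that behind it (1997 bp wide). SSRP1 was not found there, and its nearest peak lay 39.4 kb away. In all, H3K27ac covered 7.63% of RCOR1, against a median of 0.855% for genes of like length, and 13 of its peaks lay outside the TSS window. The run is counted in the reference; its length in these cells was not measured.

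SSRP1 peaks outside the TSS windows numbered 7, and 4 of them lay beyond 80% of the length of the gene, as did 33.2% of such peaks of all genes. In EP300 a peak of 282 bp lay in exon 31, the last, and in BRD2 a peak of 302 bp lay in exon 11 of 13. In HDAC1 a peak of 282 bp met exon 6 and one of 748 bp (32798341 to 32799088) met exons 13 and 14 near the 3′ end. That last peak held a FLI1 peak of 285 bp whole and was not acetylated. An H3K27ac peak of 2972 bp began 514 bp beyond it, and the TSS of MARCKSL1, a gene on the other strand, lay 2.75 kb beyond it. This is the place where FLI1 and SSRP1 were shared at these genes without H3K27ac.

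Nearly all other genes of the same complexes and of related enzyme and reader families carried H3K27ac at a TSS as well. Of 105 other coregulator genes in 7 lists, 101 carried H3K27ac, 59 SSRP1 (56.2%), 45 FLI1 (42.9%) and 32 all 3 (30.5%), near the shares of acetylated genes in general. CoREST partners carried SSRP1 at 8 of 10 and FLI1 at 5, with all 3 at 5, among them RCOR2, RCOR3, GSE1 and CTBP1. NuRD subunits carried SSRP1 at 9 of 12 and FLI1 at 6, with all 3 at MTA1, MTA2, MTA3, GATAD2A and CDK2AP1. SIN3 and NCOR subunits carried them at 8 and 6 of 14, demethylases at 7 and 7 of 13, acetyltransferases at 7 and 5 of 12, and acetyl-lysine readers at 7 and 4 of 12. BRDT, a reader gene of the germ line, carried none, and CHD5, a relative of CHD4, carried SSRP1 alone.

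Mediator subunits had the lowest shares of the 7 lists for SSRP1 (13 of 32) and for all 3 (5 of 32: MED8, MED15, MED16, MED26 and MED29). FLI1 lay at 12 of them (37.5%), a share above that of the readers (33.3%), and H3K27ac alone at 13, as at MED1. Their share with SSRP1 (40.6%) was below that of acetylated genes (54.7%), and 30 of 32 were acetylated. These shares are not of like sets. The 13 with SSRP1 include MED12L, which carried no H3K27ac, and the extent of H3K27ac cover was not matched. The difference from acetylated genes was not tested.

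**Figure D5:**
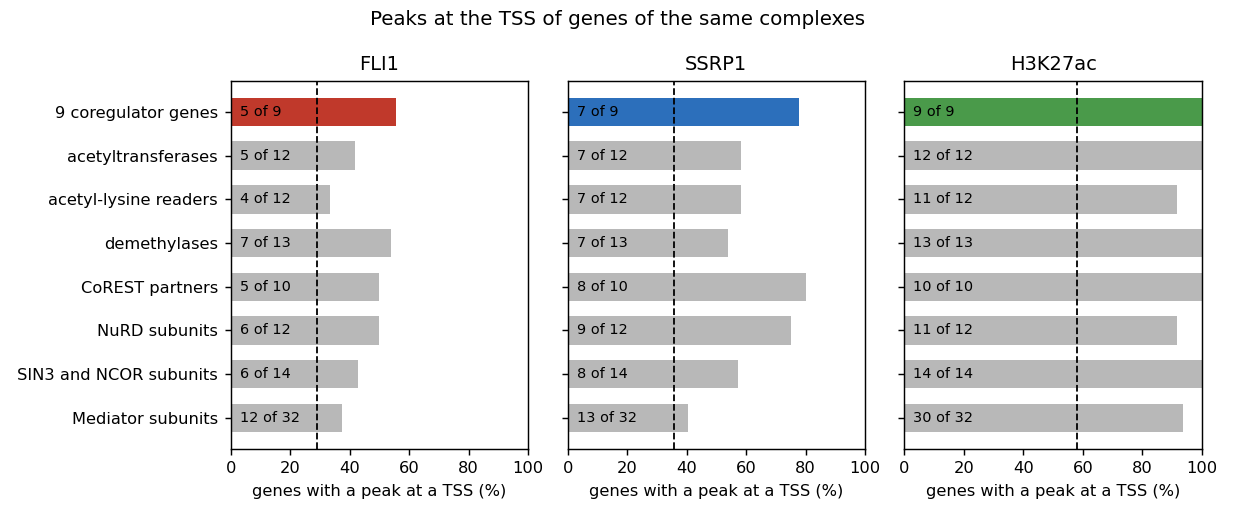
Share of genes with a FLI1, SSRP1 or H3K27ac peak within 2.5 kb of a TSS among the 9 genes (coloured) and in 7 lists of genes of the same complexes or related families (grey), in percent, with counts in the bars and the share of all protein-coding genes as a dashed line. CoREST partners (8 of 10) and NuRD subunits (9 of 12) have the longest grey bars for SSRP1, and Mediator subunits (13 of 32) the shortest.

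By the covered bases of the 3 lists on a log2 scale, the gene of those lists most like a member with the same set of peaks was RCOR2 for EP300, NCOA3 for HDAC1, MTA1 for BRD2, RBBP7 for CREBBP, MED19 for KDM1A, MED13L for HDAC2, PHF21A for CHD4 and KAT8 for MED1. RCOR2 had 1257 bp of FLI1, 1124 bp of SSRP1 and 3039 bp of H3K27ac in its windows, against 1045, 1473 and 2431 bp at EP300. These matches were unequal, with distances on that scale from 0.00474 for MED1 to 1.31 for BRD2. MTA1 had 2125 bp of SSRP1, against 4988 bp at BRD2. Marker genes were set beside the label of the cells. All 3 peaks lay at 8 of 8 Ewing sarcoma marker genes, against 17.3% of all protein-coding genes. At PPP1R1A this rests on 35 bp of FLI1 in the TSS windows. Of the markers of other cell types, 13 of 15 carried none, as did 6962 of all 20090 genes. The other 2 carried FLI1 without SSRP1 or H3K27ac. The marker lists too were chosen with earlier results of these data known, so they are a weak check of the label.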

How the data were processed

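The labels and the series' design text give ChIP-seq of SK-N-MC chromatin cut with micrococcal nuclease and sonicated, which can favour nucleosome-bound fragments. Alignment to hg19 was by Bowtie2 at its default settings, per that text, and the authors called peaks with MACS2 (2.2.7.1, per the submitters' processing notes) against input at a q-value of 0.05. Filters on duplicate or multiply mapped reads are not given in the sources used here. The deposited lists hold positions and names only, in no unit of signal, and intervals repeated for several summits were counted once: 38324 FLI1, 23078 SSRP1 and 62198 H3K27ac lines gave 36539, 19955 and 37271 intervals. Chromosomes 1 to 22 and X were used, and 0 peaks passed the end of a GRCh37 chromosome. Starts were read as BED starts, so positions could be off by 1 base if they were not.

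Genes and TSSs of basic transcripts came from GENCODE release 44 mapped to GRCh37. A peak was at a TSS when 1 bp or more of it fell within 2.5 kb of that site. Width is not a measure of strength. Each target has 1 library and genes are not replicates, so no test was made. The interval functions were tested on simulated data and returned what was planted. Intervals and tables were handled in pandas 2.3.3 and numpy 2.4.6 (Python 3.11.15), sequences with pysam 0.24.0 and samtools 1.23.1, binomial intervals with scipy 1.17.1 and plots with matplotlib 3.10.9. All 9 members are named, and list genes with all 3 peaks or none, up to 10 a list. Some genes that this rule would name are not reported here. The members and lists were chosen with earlier results of these data known, and genes of like H3K27ac cover, the position of peaks along the gene, midpoint order and the RCOR1 intron were examined after their values were seen. Alternatives were windows of 1 and 5 kb, canonical TSSs, midpoints, wider peaks, other overlap minima and other motifs.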

Additional observations from a re-analysis of the deposited data

How the results depend on the processing

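Of 44 alternatives over 13 counts, 40 stayed within 1.5 times the reported count and 25 left it as it was. Windows of 1 and 5 kb, or the midpoint in the window, gave the same members for every mark at a TSS. Peaks at or above the median width of their list put FLI1 at the TSS of 3 members (EP300, BRD2 and RCOR1), since the peaks of CREBBP and HDAC1 are narrow. The canonical TSS gave FLI1 at 4 and all 3 at 3, without BRD2. Over the gene, H3K27ac peaks that met no TSS window lay at 3 members (CREBBP, RCOR1 and CHD4). When 20% of both peaks had to be covered, 1 of the 5 FLI1 peaks at TSSs was shared with H3K27ac (37.4% of all such peaks), whose peaks are wider. GGAA alone, in place of the ETS core, occurred in the FLI1 peaks of 5 members, and in 93.9% of all FLI1 peaks at TSSs. No paired analysis was possible because each target has 1 library. A peak too weak to be called is not in the lists, so the absence of a peak sets no limit on binding.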
